A study of Homo sapiens with 48 samples.

Results

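Cells of the human embryonic kidney line HEK293T that had received the probe alone were compared between 12 h and 3 h. The members were the 8 libraries of that arm at these times, 4 at 3 h and 4 at 12 h, of 48 libraries in all, and they were joined by gene identifier over 14685 genes. In the study, cells transfected with a plasmid for NCBP1 fused to Halo, a tag that binds chloroalkane ligands, were divided into 4 arms and RNA was taken at 3, 6 and 12 h with 4 replicates each. Probe alone cells received Ht-PreHNE, a photocaged form of the lipid-derived electrophile HNE, in DMSO and no light, which means that HNE was not released on purpose. T-REX cells received the probe and light, DMSO cells received DMSO without light, and cells of the arm called light alone are described in the methods as having had both probe and light. All 4 arms carry the transfected NCBP1-Halo, whose expression is transient, and each group is thus a mixture of cells with more and with less of it. Each time point was a separate harvest, and nothing in the labels says whether libraries of 3 h and 12 h were prepared together, so that time and a preparation batch cannot be told apart in any value below.

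Samples taken at several times after a treatment change with time in culture as well. In the probe alone arm that change comes together with any effect of the probe, without light to release HNE. In cultured cells, growth programs such as ribosome biogenesis, which makes and assembles the ribosomal subunits in the nucleolus, and mitotic transcripts, which accumulate in G2, follow nutrient supply and cell density. Stress programs have transcripts of their own: the unfolded protein response raises chaperones of the endoplasmic reticulum, hypoxia-inducible factors raise glucose transporters, and p53 raises genes of cell cycle arrest and apoptosis. HEK293T cells carry the SV40 large T antigen, a viral protein that binds p53. In bulk RNA, a smaller share of cells of a kind and less RNA per cell cannot be told apart.

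All 9 markers of HEK293T were counted in every library (IRS4, LIN28B, IGF2BP1, NEFL, NEFM, KRT8, KRT18, VIM and CDH2), and 2 of 12 markers of other cell types were among the genes tested (ACTA2 and COL1A1), both of which cultured epithelial cells can express. The summed level of these 2 markers was 24 to 28.3 counts per 1000000 (CPM) at 3 h and 39.1 to 44.4 CPM at 12 h, and its part in the results was not tested. Total counts per library ran from 27284525 to 35169002 at 3 h and from 27891646 to 29685036 at 12 h. NCBP1 itself, encoded on the plasmid as well as in the genome, made up 5.91% to 6.73% of all counts at 3 h and 5.41% to 7.53% at 12 h. NCBP1 stood at 63133, 66728, 69090 and 59398 CPM at 3 h and 53415, 56345, 52800 and 74043 CPM at 12 h. NCBP1 differed by -0.13 ± 0.14 (SE) between the 4 and 4 libraries on the log2 scale (adjusted p = 0.504, edgeR). The groups overlapped, and replicate 4 at 12 h stood above the other 3. That library was also the one in which 10 of the 12 genes with the largest rise named below were highest among the 4 at 12 h, against 29.4% of all genes tested. For part of the results below, values without that library are given as well.

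At 12 h, 3133 genes (21.3% of those tested) were higher and 3085 (21%) lower than at 3 h at an adjusted p of at most 0.05 (edgeR's quasi-likelihood test, Benjamini-Hochberg adjustment over all genes). The rises were larger than the falls: the median log2 fold change was 0.49 among genes called higher and -0.31 among those called lower, 230 genes rose by at least 1 on the log2 scale and 6 fell by as much. The median over all genes was 0.01. With 4 libraries against 4, 3051 genes (20.8%) had every library at 12 h above every library at 3 h and 3059 (20.8%) had every one below.

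**Figure D1:**
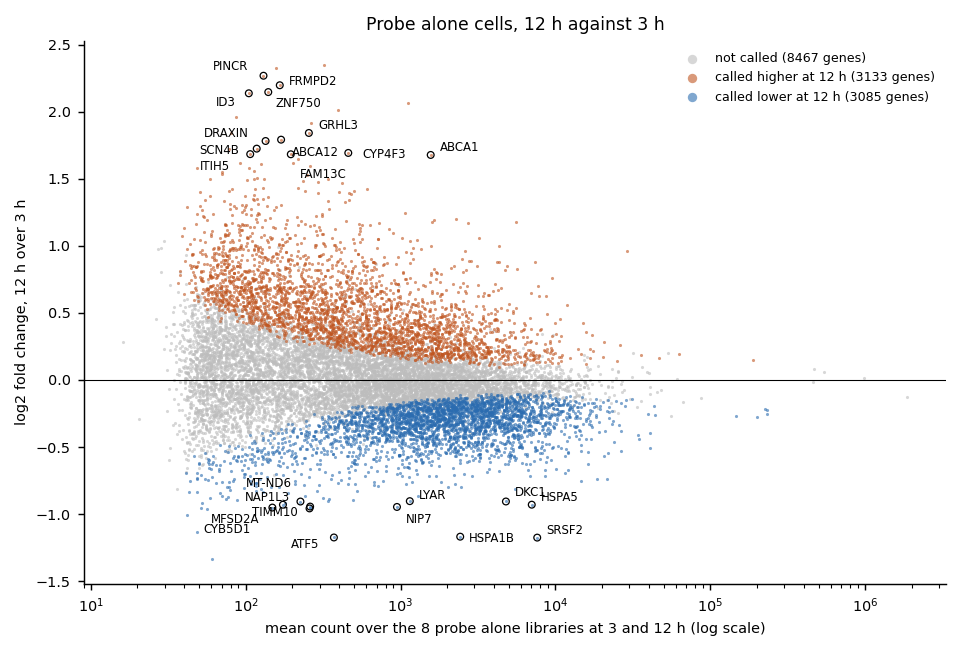
Log2 fold change at 12 h over 3 h in probe alone cells (vertical axis) against the mean count over the 8 libraries (horizontal axis, log scale), each point a gene. Orange points are the 3133 genes called higher, blue points the 3085 called lower and grey points genes not called. The named genes are the 12 per direction described in the text, and genes of high count lie mostly below 0.

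The 12 genes that rose most, among those with a symbol, a mean of at least 100 counts and no overlap between the groups, included transcripts tied to p53, lipid export and epithelial differentiation. PINCR is a long noncoding RNA known to be induced by p53. PINCR had 1.36, 1.47, 1.6 and 1.62 CPM at 3 h and 4.45, 6.64, 5.85 and 12.3 CPM at 12 h. For PINCR the log2 fold change was 2.27 ± 0.23 (adjusted p = 5.28e-11). The cholesterol exporter ABCA1 was at 23.8, 26.7, 21.3 and 28.4 CPM at 3 h and 74.8, 74.5, 72.4 and 99 CPM at 12 h. This gave ABCA1 a log2 fold change of 1.68 ± 0.13 (adjusted p = 3.17e-13). ID3, an inhibitor of helix-loop-helix factors, was counted at 1.25, 1.17, 1.44 and 1.33 CPM at 3 h and 5.61, 6.61, 6.05 and 4.58 CPM at 12 h. ID3 differed by 2.14 ± 0.26 (SE) between the 4 and 4 libraries on the log2 scale (adjusted p = 4.3e-09, edgeR). In all 3 genes the groups lay apart, which the choice of genes required. Replicate 4 was the highest library at 12 h for PINCR and ABCA1 and the lowest for ID3. Without replicate 4 at 12 h the log2 fold changes were 1.90 for PINCR and 1.56 for ABCA1. All of the 12 genes were still called higher without that library, with a median of 1.69. ZNF750 and GRHL3 are transcription factors of epidermal differentiation, and ABCA12 is a lipid transporter of keratinocytes. ZNF750 stood at 1.54, 1.6, 1.76 and 2.06 CPM at 3 h and 6.51, 6.84, 5.95 and 11.6 CPM at 12 h. ZNF750 changed by 2.15 ± 0.23 on the log2 scale (adjusted p = 1.36e-10), and by 1.89 without replicate 4 at 12 h. GRHL3 had 4.8, 2.54, 3.38 and 4.2 CPM at 3 h and 11.3, 14.3, 12.2 and 15.9 CPM at 12 h. For GRHL3 the log2 fold change was 1.84 ± 0.19 (adjusted p = 1.31e-10). The groups lay apart for both by the same choice, and ABCA12 rose by 1.79 ± 0.21 on the log2 scale from a mean of 2.55 CPM. FRMPD2 (2.2 ± 0.2), the axon guidance factor DRAXIN (1.78 ± 0.22), the sodium channel subunit SCN4B (1.73 ± 0.20), the leukotriene hydroxylase CYP4F3 (1.69 ± 0.17), ITIH5 (1.69 ± 0.23) and FAM13C (1.68 ± 0.16) completed the 12, all from a mean of at most 7.29 CPM at 3 h.

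The 12 genes that fell most included the splicing factor SRSF2, the transcription factor ATF5, chaperones and nucleolar proteins. SRSF2 was at 351, 405, 333 and 305 CPM at 3 h and 145, 153, 156 and 163 CPM at 12 h. This gave SRSF2 a log2 fold change of -1.18 ± 0.08 (adjusted p = 5.55e-16). ATF5 was counted at 20.6, 12, 17.7 and 17.4 CPM at 3 h and 8.43, 6.25, 7.48 and 7.86 CPM at 12 h. ATF5 differed by -1.17 ± 0.17 (SE) between the 4 and 4 libraries on the log2 scale (adjusted p = 1.9e-07, edgeR). HSPA5 (BiP), the main chaperone of the endoplasmic reticulum, stood at 322, 326, 304 and 264 CPM at 3 h and 169, 156, 158 and 156 CPM at 12 h. HSPA5 changed by -0.93 ± 0.07 on the log2 scale (adjusted p = 7.72e-15). Like the 12 genes that rose, the 12 that fell were taken from genes without overlap between the groups. DKC1, the pseudouridine synthase of box H/ACA particles, and NIP7, a factor of pre-rRNA processing, belong to ribosome biogenesis. DKC1 had 224, 198, 217 and 184 CPM at 3 h and 117, 106, 114 and 102 CPM at 12 h. For DKC1 the log2 fold change was -0.91 ± 0.07 (adjusted p = 1.12e-14). NIP7 was at 45.2, 41.1, 41.6 and 36.8 CPM at 3 h and 21.4, 20.1, 22.3 and 21.8 CPM at 12 h. This gave NIP7 a log2 fold change of -0.95 ± 0.08 (adjusted p = 1.1e-13). Their groups lay apart by the same choice. The heat shock protein gene HSPA1B fell by 1.17 on the log2 scale (SE 0.25), a value that is uncertain because its near-identical copy HSPA1A shares its reads. The others were TIMM10, a chaperone of mitochondrial import (-0.96 ± 0.16), CYB5D1 (-0.95 ± 0.17), the nucleosome assembly protein NAP1L3 (-0.94 ± 0.13), the lysophospholipid transporter MFSD2A (-0.93 ± 0.14), the nucleolar protein LYAR (-0.90 ± 0.07) and MT-ND6, the one protein encoded on the light strand of mitochondrial DNA (-0.91 ± 0.30).

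The p53 targets rose as a group. Of 23 members tested, 22 (95.7%) were called higher and 0 lower, beside 21.3% and 21% of all genes. The median log2 fold change was 0.75 (all genes, 0.01). In all 23 the libraries at 12 h lay above those at 3 h, which held for 20.8% of all genes. BAX, which permeabilises mitochondria in apoptosis, was the member not called (log2 fold change 0.26). The death receptor FAS was counted at 33, 33.7, 32.7 and 35.3 CPM at 3 h and 72, 74.1, 76.4 and 85.1 CPM at 12 h. FAS differed by 1.19 ± 0.11 (SE) between the 4 and 4 libraries on the log2 scale (adjusted p = 9.36e-12, edgeR). The ubiquitin ligase MDM2, which targets p53 for degradation, stood at 636, 608, 633 and 762 CPM at 3 h and 1274, 1216, 1197 and 1460 CPM at 12 h. MDM2 changed by 0.96 ± 0.09 on the log2 scale (adjusted p = 4.46e-12). The stress-induced sestrin SESN1 had 48.9, 53, 52.5 and 55.2 CPM at 3 h and 95.4, 95.4, 87.9 and 99.8 CPM at 12 h. For SESN1 the log2 fold change was 0.85 ± 0.05 (adjusted p = 4.21e-17). None of these groups overlapped. The cyclin-dependent kinase inhibitor CDKN1A and TP53I3 both rose by 1.18, PLK2 by 1.02 and the death receptor TNFRSF10B by 0.52. In replicate 4 at 12 h, 21 of the 23 members were at their highest. Without that library, 21 were called higher and the median was 0.68. Replicate 4 at 12 h also had the highest summed level of these targets and the highest NCBP1 level of its group in the other 3 arms, and the part of this in the results was not tested.

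Mitotic genes went the other way, with 38 of 42 (90.5%) called lower, 1 (2.38%) higher and a median of -0.33. Of all genes, 21% were called lower and 21.3% higher. Without replicate 4 at 12 h, in which 24 of the 42 were lowest, 34 were called lower (median -0.31). CCNB1, the cyclin that drives entry into mitosis, was at 204, 214, 201 and 188 CPM at 3 h and 134, 141, 144 and 125 CPM at 12 h. This gave CCNB1 a log2 fold change of -0.57 ± 0.05 (adjusted p = 2.39e-12). The cytokinesis motor KIF23 was counted at 154, 160.2, 156 and 138 CPM at 3 h and 108, 94.8, 98.8 and 95.2 CPM at 12 h. KIF23 differed by -0.61 ± 0.05 (SE) between the 4 and 4 libraries on the log2 scale (adjusted p = 3.77e-13, edgeR). Cyclin A2 (CCNA2) stood at 237, 265, 228 and 211 CPM at 3 h and 161, 165, 172 and 165 CPM at 12 h. CCNA2 changed by -0.50 ± 0.06 on the log2 scale (adjusted p = 2.03e-09). All libraries at 12 h lay below all at 3 h in these genes. The survivin gene BIRC5 fell by 0.55, the kinases AURKA and PLK1 by 0.53 and 0.43, and CDC20, which activates the anaphase-promoting complex, by 0.51. HMMR, a spindle protein, was the member that rose (0.34). Of 40 DNA replication genes, 6 (15%) were called higher and 11 (27.5%) lower (median -0.04), beside 21.3% and 21% of all genes. The primase subunit PRIM1 rose by 0.59, and the ribonucleotide reductase subunit RRM2 and the licensing factor CDC6 fell by 0.46 and 0.44. Replication-dependent histones, of which 35 were tested, had 0 members called higher and 6 (17.1%) lower (median -0.20), beside 21.3% and 21% of all genes. Their near-identical copies make the single values uncertain.

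Promoters of mitotic genes are known to carry a CCAAT box, bound by NF-Y, and the element TTTGAA, and those of unfolded protein response genes a CCAAT box within the endoplasmic reticulum stress element. RefSeq promoters (GRCh38.p14) were matched by symbol for 37 of the 42 mitotic genes and 23 of the 26 of the unfolded protein response, and the 250 bases before the start were searched on both strands. CCAAT was found in 30 of the 37 mitotic promoters (81.1%) and 20 of the 23 (87.0%) of the unfolded protein response, against 35.7% of the 10447 promoters of genes tested. In lists of the same comparison for which no such box is named here, CCAAT was found in 7 of 21 promoters of ribosome biogenesis (33.3%). It was found in 9 of 18 of p53 targets (50%) and 6 of 11 of NRF2 targets (54.5%). TTTGAA was found in 20 of the 37 (54.1%) and 1 of the 23 (4.35%), against 8.31%. ACGTG was found in 14 (37.8%) and 9 (39.1%), against 23.6%, and TGACNNNGC in 5 (13.5%) and 3 (13%), against 12.1%. The share with ACGTG was 42.9% in ribosome biogenesis, 27.8% in p53 targets and 18.2% in NRF2 targets. These lists were chosen for what their genes do, and a match of letters is a description, not a bound site. The stretches below are shown because they hold the CCAAT nearest the start in the members with the smallest p that had a promoter entry. Capitals mark CCAAT or its reverse ATTGG and, in KIF23, TTTGAA as well, and each is written 5′ to 3′ on the strand of the gene.
KIF23 (chr15:69414272-69414301, plus strand): cggacgggcgctgATTGGcccgTTTGAAat
CCNB1 (chr5:69167082-69167111, plus strand): tgccacgaacaggCCAATaaggagggagca
CCNA2 (chr4:121823923-121823952, minus strand): cgcgagcgctttcATTGGtccatttcaata
HSPA5 (chr9:125241393-125241422, minus strand): agcagggccttcaCCAATcggcggcctcca
XBP1 (chr22:28800605-28800634, minus strand): cacgcgacgctggCCAATcgcggagggcca
SELENOS (chr15:101277513-101277542, minus strand): gggtcggcctgcgATTGGccgggaccacga
CREB3L2 (chr7:138002118-138002147, minus strand): aggcggatatCCAATTGGtcaagccttgga
The boxes shown began 44 to 66 bases before the start, and HSPA5 and CREB3L2 each held 4 within the window. In CREB3L2 the box and its reverse overlap.

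The unfolded protein response fell, with 22 of 26 members (84.6%) called lower, 0 higher and a median of -0.41, beside 21% and 21.3% of all genes. XBP1, the transcription factor that is spliced by IRE1, had 89, 90.7, 84.6 and 81 CPM at 3 h and 56.7, 63.5, 57.3 and 64.1 CPM at 12 h. For XBP1 the log2 fold change was -0.52 ± 0.06 (adjusted p = 2.39e-10). The selenoprotein SELENOS, part of the machinery that retrotranslocates misfolded proteins, was at 33.5, 33.3, 32.7 and 31 CPM at 3 h and 21.1, 19.1, 21.9 and 21.7 CPM at 12 h. This gave SELENOS a log2 fold change of -0.64 ± 0.07 (adjusted p = 4.27e-10). The transcription factor CREB3L2 was counted at 227, 198, 215 and 213 CPM at 3 h and 139, 145, 137 and 151 CPM at 12 h. CREB3L2 differed by -0.58 ± 0.05 (SE) between the 4 and 4 libraries on the log2 scale (adjusted p = 4.46e-12, edgeR). The groups did not overlap in any of them, as in HSPA5 above. The lectin chaperone CALR fell by 0.61 and HSP90B1 by 0.53. HERPUD1, a factor of degradation at the endoplasmic reticulum, had a value of -0.15 and was not called (called at -0.22 without replicate 4 at 12 h), nor were SDF2L1 (-0.32, and 0.02 without replicate 1 at 3 h), SYVN1 (-0.15) and EDEM1 (0.10).

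Heat shock genes, most but not all of them for cytosolic chaperones, moved partly with them. Of 19 heat shock genes, 13 (68.4%) were called lower and 3 (15.8%) higher (median -0.27), beside 21% and 21.3% of all genes. HSPA6, which is not on this list, rose by 1.34. The HSP40 cochaperone DNAJB1 stood at 191, 179.7, 202 and 183 CPM at 3 h and 113, 119.8, 117 and 140.3 CPM at 12 h. DNAJB1 changed by -0.62 ± 0.08 on the log2 scale (adjusted p = 4.99e-09). The constitutive chaperone HSPA8 had 1689, 1469, 1594 and 1578 CPM at 3 h and 1134, 1119, 1189 and 1018 CPM at 12 h. For HSPA8 the log2 fold change was -0.51 ± 0.07 (adjusted p = 4.8e-08). Both were lower in each library at 12 h than in any at 3 h, and HSPB1 was among the 3 that rose (0.70). Of 33 genes of the integrated stress response, which acts through ATF4, 5 (15.2%) were called higher and 9 (27.3%) lower (median -0.07), beside 21.3% and 21% of all genes. ATF5 and the cystine transporter SLC7A11 (-0.43) were lower, and GDF15 (1.62), a secreted stress factor that p53 also induces, was higher. The median was -0.14 without replicate 4 at 12 h, in which 22 of the 33 members were highest. Among 17 NRF2 targets, which answer to electrophiles, 0 were called higher and 8 (47.1%) lower (median -0.10). Of all genes 21% were called lower. Among protein-coding genes this share was 33.8% at a mean of 1000 to 3000 counts and 46.7% at 3000 and more. The thioredoxin reductase TXNRD1 was at 118, 121, 111 and 111 CPM at 3 h and 79.1, 78.1, 75 and 78.7 CPM at 12 h. This gave TXNRD1 a log2 fold change of -0.57 ± 0.06 (adjusted p = 3.92e-11). HMOX1, the NRF2 target that electrophiles raise strongly, had a value of -0.10 and was not called, and was called at -0.28 without replicate 4 at 12 h.

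Ribosome biogenesis had the lowest median of the 34 lists, -0.52, with 22 of 26 members called lower and 0 higher. The nucleolar helicase DDX21 was counted at 646, 625, 599.5 and 566 CPM at 3 h and 370.4, 340.1, 379 and 353 CPM at 12 h. DDX21 differed by -0.76 ± 0.06 (SE) between the 4 and 4 libraries on the log2 scale (adjusted p = 1.21e-13, edgeR). The second subunit of RNA polymerase I, POLR1B, stood at 142, 161, 147 and 136 CPM at 3 h and 91.7, 89.2, 95.5 and 88.7 CPM at 12 h. POLR1B changed by -0.68 ± 0.05 on the log2 scale (adjusted p = 3.04e-14). NOP16 fell by 0.90 and the nucleolar GTPase GNL3 by 0.67. The members not called were RRS1 (-0.66), the box C/D methyltransferase FBL (-0.22), RRP12 (-0.17) and BOP1 (0.13). Host genes of small nucleolar RNAs had 9 of 16 called lower and 1 higher (median -0.26), among them SNHG16 (-0.48 ± 0.06) and GAS5 (-0.37 ± 0.05). Of 20 aminoacyl-tRNA synthetases, 8 were called lower and 0 higher (median -0.15). Transcripts of the ribosomal proteins themselves moved little: 11 of 79 were called lower and 0 higher (median -0.12). That count was 3 without replicate 4 at 12 h, in which 67 of the 79 were at their lowest, and 5, 6 and 7 without replicates 1, 2 and 3 at 3 h. Nuclear genes of oxidative phosphorylation had 18 of 74 (24.3%) called lower and 0 higher (median -0.11). Of 13 mitochondrial transcripts, 6 (46.2%) were called lower and 0 higher (median -0.22). Beside these, 21% of all genes tested were called lower, and 46.7% of protein-coding genes with a mean of at least 3000 counts. Without replicate 4 at 12 h, 12 nuclear genes of oxidative phosphorylation and 5 mitochondrial transcripts were called lower.

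Of 13 genes for partners of the nuclear cap-binding complex, 10 (76.9%) were called lower and 1 (7.69%) higher (median -0.27), beside 21% and 21.3% of all genes. The importin KPNA2 had 765, 833, 757 and 699 CPM at 3 h and 468, 457, 466 and 438 CPM at 12 h. For KPNA2 the log2 fold change was -0.74 ± 0.05 (adjusted p = 9.93e-16). NCBP2, the subunit that binds the cap, was at 35.7, 34, 36.5 and 36.8 CPM at 3 h and 29.9, 24.2, 27.1 and 27.4 CPM at 12 h. This gave NCBP2 a log2 fold change of -0.40 ± 0.07 (adjusted p = 1.11e-05). Neither gene had overlapping groups. KPNB1 fell by 0.38 and the export adaptor ALYREF by 0.46, and CTIF, which bridges the cap-binding complex to translation, was the one member that rose (0.43).

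Of 23 genes on the sterol synthesis list, 13 (56.5%) were called lower and 2 (8.7%) higher (median -0.25), beside 21% and 21.3% of all genes. Of 8 LXR targets, 4 were called higher, 1 lower and 3 in neither direction (median 0.27). NSDHL, a sterol dehydrogenase of the pathway, was counted at 45.6, 42, 43.1 and 35.9 CPM at 3 h and 27.8, 25.7, 25.6 and 22.4 CPM at 12 h. NSDHL differed by -0.71 ± 0.09 (SE) between the 4 and 4 libraries on the log2 scale (adjusted p = 2.62e-08, edgeR). The isomerase IDI1, which makes dimethylallyl diphosphate, stood at 251, 269, 231 and 199.5 CPM at 3 h and 168, 173, 164 and 163 CPM at 12 h. IDI1 changed by -0.51 ± 0.07 on the log2 scale (adjusted p = 1.97e-07). The sterol exporter ABCG1 had 1.72, 1.47, 1.21 and 1.84 CPM at 3 h and 3.45, 3.12, 4.14 and 4.44 CPM at 12 h. For ABCG1 the log2 fold change was 1.28 ± 0.23 (adjusted p = 7.79e-06). The groups lay apart in all 3 genes. STARD4, a sterol carrier, rose by 0.39. SMPDL3A rose by 0.82, and MYLIP, a ubiquitin ligase, was the LXR target that fell (-0.29 ± 0.08). In fatty acid synthesis, 2 of 12 (16.7%) were called higher and 2 (16.7%) lower (median 0.03), below the shares over all genes. These counts fell to 1 higher without replicate 2 or 4 at 3 h. They fell to 1 lower without replicate 1 or 2 at 3 h or 2 at 12 h, and to 0 lower without replicate 4 at 12 h.

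Hypoxia genes rose, with 19 of 29 (65.5%) called higher and 3 (10.3%) lower (median 0.40), beside 21.3% and 21% of all genes. NDRG1 was at 61.4, 62.3, 65 and 65.9 CPM at 3 h and 119, 111, 111 and 109 CPM at 12 h. This gave NDRG1 a log2 fold change of 0.82 ± 0.08 (adjusted p = 2e-12). The glucose transporter SLC2A3 was counted at 6.97, 7.12, 4.53 and 6.16 CPM at 3 h and 14.9, 15.9, 14.2 and 12.7 CPM at 12 h. SLC2A3 differed by 1.22 ± 0.17 (SE) between the 4 and 4 libraries on the log2 scale (adjusted p = 6.42e-08, edgeR). The mitophagy receptor BNIP3 stood at 43, 40.9, 39.1 and 31.1 CPM at 3 h and 72.1, 69.9, 69 and 54.3 CPM at 12 h. BNIP3 changed by 0.78 ± 0.12 on the log2 scale (adjusted p = 8.51e-07). Each library at 12 h exceeded each at 3 h in these genes. STC1 rose by 1.58, and the 3 members that fell were the glycolytic enzymes ALDOC (-0.75) and PGK1 (-0.39) and the mitochondrial protein FAM162A (-0.31). Replicate 4 at 12 h was the lowest of its group in 21 of the 29 members, and without it 22 were called higher, with a median of 0.46. Glycolysis had 5 of 20 (25%) called higher and 8 (40%) lower (median -0.18). Its members that rose were the transporters SLC2A1 and SLC2A3 and the enzymes HK2, PFKP and ENO2, and the lactate transporter SLC16A1 fell by 0.61. Without replicate 4 at 12 h, in which 17 of the 20 were lowest, 5 were called lower. SLC2A1, SLC2A3, HK2, ENO2, ALDOC, PGK1 and LDHA are on both lists and are counted in each.

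Targets of BMP and TGF-beta, which act through SMAD proteins, had 7 of 10 called higher and 0 lower (median 0.42). For this and the next lists, the shares over all genes were 21.3% higher and 21% lower. ID2, like ID3 an inhibitor of helix-loop-helix factors, had 58.6, 61.1, 58.7 and 57.5 CPM at 3 h and 127, 118, 112 and 103 CPM at 12 h. For ID2 the log2 fold change was 0.96 ± 0.06 (adjusted p = 1.91e-16). Its relative ID4 was at 68.7, 72.3, 65.8 and 68.2 CPM at 3 h and 119, 112, 107 and 108 CPM at 12 h. This gave ID4 a log2 fold change of 0.70 ± 0.07 (adjusted p = 1.08e-10). The inhibitory SMAD, SMAD6, was counted at 9.61, 8.89, 13 and 13 CPM at 3 h and 20, 17.3, 21 and 17.4 CPM at 12 h. SMAD6 differed by 0.77 ± 0.11 (SE) between the 4 and 4 libraries on the log2 scale (adjusted p = 1.57e-07, edgeR). The groups lay apart in each. Of 9 retinoid genes, 5 were called higher and 0 lower (median 0.32), with the retinoic acid hydroxylase CYP26B1 at 0.80 ± 0.15, the retinal reductase DHRS3 at 0.77 ± 0.13 and the receptor RARB at 0.47 ± 0.08. Notch targets had 4 of 5 called higher and 0 lower (median 0.38), with HES1 at 0.54 ± 0.10, and Wnt feedback genes 4 of 10 higher and 1 lower (median 0.12), with LEF1 at 0.48 ± 0.06. YAP and TEAD targets had 11 of 19 higher and 2 lower (median 0.31), with the phosphatase PTPN14 at 0.43 ± 0.04. Without replicate 3 at 3 h, 7 YAP and TEAD targets were called higher and 1 lower, and without replicate 3 at 12 h, 2 Wnt feedback genes were called higher.

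In the remaining lists, the counts lay nearer to those over all genes or the lists were short. Of 24 immediate early genes 7 were called higher and 3 lower (median 0.29), of 22 clock genes 7 higher and 8 lower (median -0.02), with the repressor BHLHE40 at 0.80 ± 0.10, of 26 genes of lysosome and autophagy 3 higher and 6 lower (median -0.04), and of 10 interferon response genes 3 higher and 1 lower (median 0.14). Alpha-arrestins had 3 of 5 called higher and 1 lower (median 0.45), and 1 higher without replicate 2 at 3 h or replicate 4 at 12 h. Without replicate 1 or 2 at 3 h, 4 clock genes were called lower. Of 3 metallothionein and zinc genes 1 was higher and 1 lower (median 0.37), and of 6 aryl hydrocarbon receptor genes 0 were higher and 2 lower (median -0.02), with TIPARP at -0.50 ± 0.08. The HEK293T markers had 6 of 9 called higher and 0 lower (median 0.30), with the neurofilament gene NEFL at 0.73 ± 0.08, and both markers of other cell types tested were called higher (ACTA2 0.65 ± 0.12, COL1A1 0.65 ± 0.20).

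**Figure D2:**
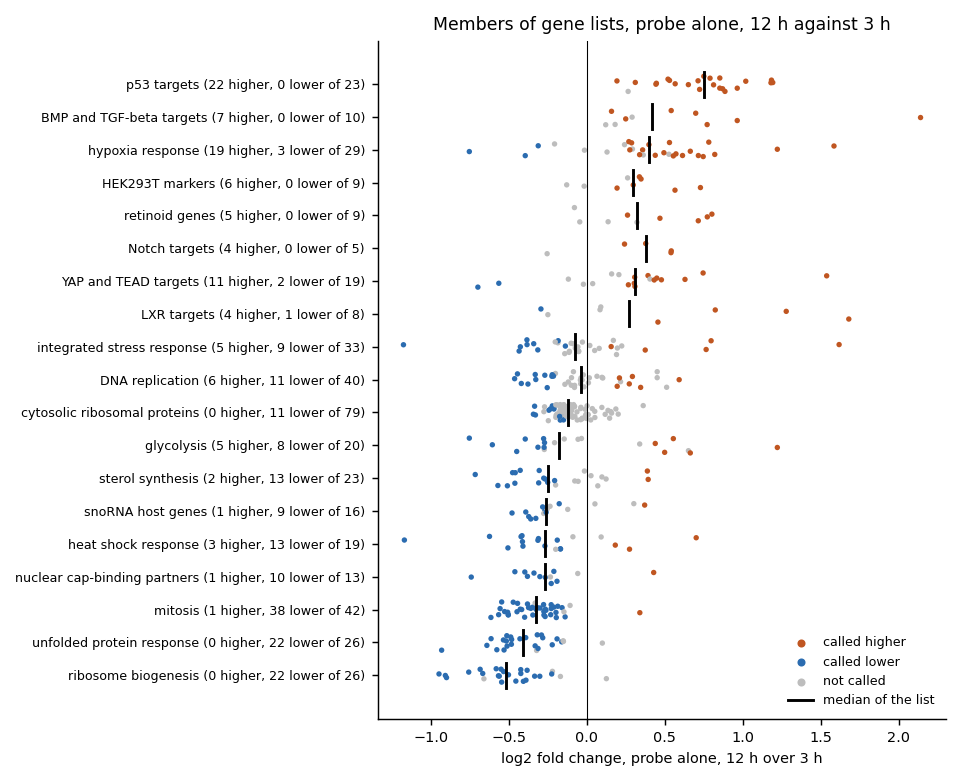
Log2 fold change at 12 h over 3 h in probe alone cells (horizontal axis) for the members of 19 gene lists, each point a gene, spread vertically at random within its list. Orange and blue points are members called higher and lower, grey points members not called, and the black bar is the median, which runs from 0.75 for p53 targets to -0.52 for ribosome biogenesis.

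**Figure D3:**
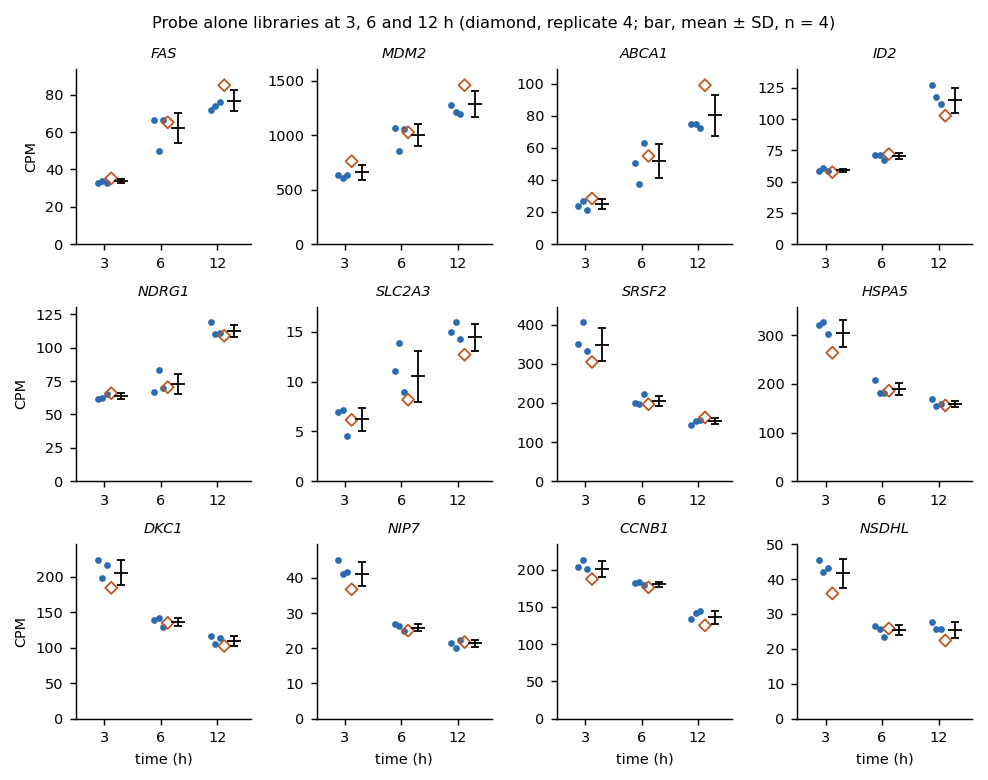
CPM (vertical axis, from 0) of 12 named genes in each probe alone library at 3, 6 and 12 h (horizontal axis). Blue points are replicates 1 to 3, the orange diamond is replicate 4, and the black bar is the mean ± SD of the 4 libraries. At 12 h all libraries lie above those of 3 h in the first 6 genes and below them in the last 6.

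Direction followed the class of gene and its level. Of 1428 long noncoding genes (lincRNA, antisense and processed transcripts in GENCODE 29), 35.7% were called higher and 7.14% lower, against 20.5% and 24.3% of 11874 protein-coding genes. At like counts the share called higher was the larger one in long noncoding genes in all 5 count ranges: among genes with a mean of 300 to 1000 counts, 48.7% of 230 long noncoding and 23% of 3367 protein-coding genes were called higher, and 9.57% and 16.5% lower. The share called lower was the smaller one in long noncoding genes from 300 counts up, but not below, where most of them lie: it was 3.81% of 577 against 3.04% at 30 to 100 counts and 7.77% of 515 against 5.53% at 100 to 300. Among protein-coding genes, the share called lower rose from 3.04% at a mean of 30 to 100 counts to 46.7% at 3000 and more, and the share called higher was 21% and 12.7%. Counting error is smaller at high counts, and its part in this difference was not tested. Among the 2911 genes of highest GC content, 18.3% were called higher and 7.39% lower, with a median of 0.12, against 20.2% and 26.5% and a median of -0.04 among the 2912 of lowest GC content. The libraries were stranded, but whether counting used the strand is not given in the sources used here, and an antisense gene and its partner cannot then be told apart. The share of all counts in long noncoding genes was 5.24% to 5.63% at 3 h and 5.79% to 6.19% at 12 h, without overlap.

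**Figure D4:**
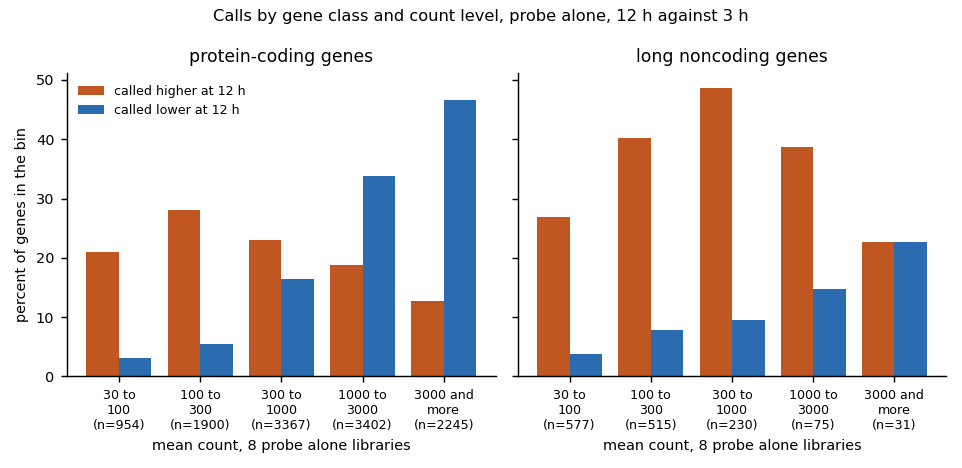
Percent of genes called higher (orange bars) and lower (blue bars) at 12 h in probe alone cells, by mean count over the 8 libraries (horizontal axis), for protein-coding (left) and long noncoding genes (right), with the number of genes under each bin. Blue bars grow with the count in protein-coding genes, from 3.04% to 46.7%, and the last bin of long noncoding genes holds 31 genes.

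At 6 h most called genes had a mean between those at 3 h and 12 h. This held for 5164 of the 6218 genes called (83.0%) and for 53.6% of all genes tested. Genes are called when their means at 3 h and 12 h lie apart, which in itself raises the share with the 6 h mean between them. No conclusion on a gradual change is drawn from the difference between these percentages. Between 3 and 6 h, 1620 genes were called higher and 1540 lower (11% and 10.5%), and between 6 and 12 h 1184 and 1449 (8.06% and 9.87%). These comparisons share libraries with 12 h against 3 h and are given side by side. The p53 targets had a median of 0.49 from 3 to 6 h and 0.25 from 6 to 12 h, and the unfolded protein response -0.28 and -0.14. Ribosome biogenesis had -0.26 and -0.24. Mitotic genes had most of their fall late, at -0.08 and -0.23, as had heat shock genes, at 0.05 and -0.23. HSPA8 counted a mean of 1753 CPM at 6 h, above 1583 CPM at 3 h and 1115 CPM at 12 h. Hypoxia genes had 0.13 and 0.27. NCBP1 had a mean of 82943 CPM at 6 h, above that of either other time.

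The other arms had changes of their own between 3 and 12 h, on libraries that the probe alone comparison does not share. In DMSO cells 2997 genes were called higher and 2697 lower (20.4% and 18.4%, 38.8% in all). With light alone the counts were 2994 and 2789 (20.4% and 19%, 39.4% in all), and under T-REX 3103 and 3018 (21.1% and 20.6%, 41.7% in all). Of the 6218 genes called in probe alone cells, 96.9% had the same sign of change in DMSO, 96.2% with light alone and 95.5% under T-REX, against 81.4%, 79.3% and 78.3% of all genes tested. Over all genes, Pearson's r of the log2 fold changes was 0.81 with DMSO, 0.75 with light alone and 0.73 with T-REX, as a description over genes, which are not independent replicates and share any batch of a time point. The p53 targets had a median of 0.51 in DMSO, 0.39 with light alone and 0.54 under T-REX. Ribosome biogenesis had -0.40, -0.33 and -0.39. No member of either list passed the test of the difference between arms.

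**Figure D5:**
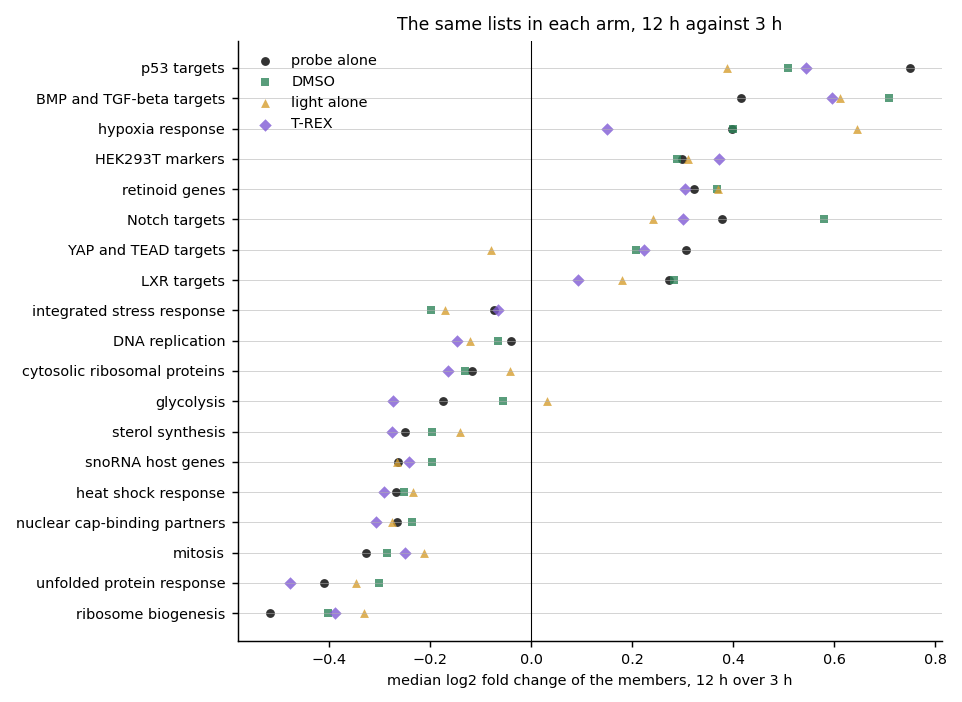
Median log2 fold change at 12 h over 3 h (horizontal axis) of the members of 19 gene lists in probe alone (black circles), DMSO (green squares), light alone (yellow triangles) and T-REX cells (purple diamonds). The 4 arms fall on the same side of 0 in all lists shown but YAP and TEAD targets and glycolysis, in both of which light alone stands across it.

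Tested directly, the change in probe alone cells differed from that in DMSO cells for 1 gene, which was higher (0.00681% of those tested), from light alone for 18 (0.123%), 5 higher (0.034%) and 13 lower (0.0885%), and from T-REX for 10 (0.0681%), 1 higher (0.00681%) and 9 lower (0.0613%). An unadjusted p of at most 0.05 was reached by 1308, 1609 and 1962 genes. DESeq2 called 8, 36 and 45. The median SE of such a difference was 0.15 on the log2 scale, so that small differences were not detectable at this depth and replication. The gene that differed from DMSO was HSPA6, a strictly inducible member of the HSP70 family, and its reads may be shared with a near-identical pseudogene. HSPA6 stood at 2.05, 2.11, 1.47 and 2.99 CPM at 3 h and 3.65, 5.1, 5.35 and 7.69 CPM at 12 h. In DMSO cells, HSPA6 had 2.75, 1.89, 4.26 and 1.98 CPM at 3 h and 2.42, 1.2, 0.491 and 1.56 CPM at 12 h. In cells with light alone, HSPA6 had 3.59, 3.49, 3.66 and 2.8 CPM at 3 h and 0.972, 2.21, 1.49 and 2.43 CPM at 12 h. In T-REX cells, HSPA6 had 2.2, 2.43, 3.63 and 2.54 CPM at 3 h and 4.33, 2.79, 4.65 and 6.11 CPM at 12 h. HSPA6 was higher at 12 h without overlap in probe alone cells, lower without overlap with light alone, and overlapped in DMSO and T-REX. The difference of changes was 2.27 ± 0.42 against DMSO (adjusted p = 0.0316), 2.28 ± 0.41 against light alone (adjusted p = 0.0206) and 0.62 ± 0.40 against T-REX (adjusted p = 0.505). HSPA6 was not called against DMSO in 13 of 27 alternatives, among them each fit without 1 of replicates 1 to 3 of probe alone at 3 h or 2 to 4 at 12 h.

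Against light alone, the 3 genes per direction with the smallest p were HSPA6, the gel-forming mucin gene MUC19 and HERPUD1 among those higher, and MRPS15, SLC7A2 and MAP2K6 among those lower. Higher and lower here give the sign of the difference of changes, not the direction of change in probe alone cells. MUC19 had 10.5, 10.5, 9.38 and 14.3 CPM at 3 h and 25.6, 27.1, 28.9 and 38.4 CPM at 12 h. In cells with light alone, MUC19 had 16.7, 10.1, 11.3 and 12.1 CPM at 3 h and 15.5, 15.4, 15.6 and 18.3 CPM at 12 h. The difference was 1.06 ± 0.20 (adjusted p = 0.023). MUC19 rose without overlap in probe alone cells and overlapped with light alone. HERPUD1 differed by 0.51 ± 0.10, CYP4F3 by 1.06 ± 0.23, the mitochondrial ribosomal protein gene MRPS15 by -0.39 ± 0.08, the cationic amino acid transporter gene SLC7A2 by -0.50 ± 0.10 and the kinase gene MAP2K6 by -0.56 ± 0.11. From 3 to 12 h, HERPUD1 changed by -0.15 in probe alone cells and by -0.67 with light alone. The values were -0.26 and 0.13 for MRPS15, -0.06 and 0.43 for SLC7A2, 0.23 and 0.78 for MAP2K6 and 1.69 and 0.63 for CYP4F3. Against T-REX, TMEM45A was the gene that was higher, and RASAL2, NCAPH and NFYA had the smallest p among those lower. TMEM45A was at 15.6, 14.5, 14 and 13.2 CPM at 3 h and 24.3, 25.2, 20.8 and 21.5 CPM at 12 h. In T-REX cells, TMEM45A had 11.3, 13, 14 and 13.4 CPM at 3 h and 12.9, 12.1, 13.3 and 12.8 CPM at 12 h. The difference was 0.70 ± 0.13 (adjusted p = 0.0227). TMEM45A rose in probe alone cells, and its groups overlapped under T-REX. RASAL2, which encodes a RAS GTPase-activating protein, differed by -0.40 ± 0.08, the condensin subunit gene NCAPH by -0.33 ± 0.07 and NFYA, which encodes a subunit of NF-Y, by -0.33 ± 0.07. RASAL2 changed by 0.04 in probe alone cells and by 0.45 under T-REX, NCAPH by -0.21 and 0.12 and NFYA by -0.19 and 0.14. These calls were lost without single libraries of either arm: against light alone the count was 0 without replicate 2 at 3 h or replicate 4 at 12 h of probe alone and without replicate 1 or 3 at 12 h of light alone, and against T-REX it was 0 without replicate 2 at 3 h or at 12 h of probe alone, without replicate 3 or 4 at 3 h or without replicate 2 or 3 at 12 h of T-REX.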

How the data were processed

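Ribosomal RNA-depleted, stranded libraries were sequenced in paired ends. The authors deposited raw read counts per gene in 1 table per time point, with genes of low count already removed (lowest count 2); for time-resolved RNA-seq the study names Cufflinks, TopHat and cutadapt in its form on research design, and which tool made these counts, on which genome build and annotation, is not given in the sources used here. The authors also deposited 2 scores per library, factors of unwanted variation made within each time point, which served only an alternative. Their log2 CPM and transformed scores, made per time point, were not used. The 3 tables were joined by gene identifier. All 48 libraries were fitted in edgeR 4.0.16 (R 4.3.3) with 1 mean per arm and time, TMM factors and the quasi-likelihood test (36 residual degrees of freedom), and called at an adjusted p of at most 0.05 over 14685 genes. A log2 fold change is that of the fit, its SE is taken from the test, and CPM (counts per 1000000) uses the library's total scaled by TMM. Gene classes came from GENCODE 29, which held 14556 of the identifiers, and promoters from RefSeq. The labels give 4 biological replicates and no batch. The fit was run on simulated counts with known changes. These held no outlying library and no batch, so that the run is a check of the code and not of the calls made here.

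Named were NCBP1, the 12 genes per direction with the largest change (symbol, mean of at least 100 counts, no overlap), up to 4 members per list with the smallest p, and up to 3 genes per direction and difference between arms; the other members named, mostly with a log2 fold change alone, were picked with their values in view. Groups that do not overlap, in genes named by size of change or smallest p, follow largely from that choice. The comparison and the 34 lists were chosen with earlier results of these data known. The lists held 817 entries, of which 728 were in the table. Alternatives were RLE (DESeq2) and upper quartile factors, NCBP1 left out, no filter or a mean of at least 100 counts, a replicate block, the deposited factors, thinning to the lowest total, GC content and length offsets, fewer libraries, DESeq2 1.42.0 and leaving out each library. Some members of the lists are counted but not reported singly here.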

Additional observations from a re-analysis of the deposited data

Results flagged for a closer look

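Single libraries stood far from the other 3 of their group in 11 of the 250 groups of 4 checked (Dixon's ratio above its critical value), a rule that chance alone meets in about 1 of 20 groups. At 12 h these were replicate 4 for NCBP1 (74043 CPM), ZNF750 (11.6 CPM), ABCA1 (99.0 CPM), PLK2 (28.1 CPM) and SLC7A2 (42.3 CPM), replicate 2 for SLC2A1 (58.7 CPM), and replicate 3 for SYVN1 (53.5 CPM) and NOP16 (12.6 CPM). At 3 h these were replicate 4 for ITIH5 (2.65 CPM) and CDKN1A (131 CPM) and replicate 2 for BOP1 (10.5 CPM). Replicate 4 at 12 h thus held 5 of the 11.

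The change from 3 to 12 h differed between probe alone and another arm by the test of the difference (edgeR's quasi-likelihood test, adjusted over all genes) for 1 gene against DMSO, 18 against light alone and 10 against T-REX. HSPA6 differed by 2.27 on the log2 scale against DMSO and by 2.28 against light alone. Against light alone, MUC19 and CYP4F3 each differed by 1.06, HERPUD1 by 0.51, MRPS15 by -0.39, SLC7A2 by -0.50, MAP2K6 by -0.56 and NCAPH by -0.29. Against T-REX, TMEM45A differed by 0.70, RASAL2 by -0.40, NCAPH by -0.33 and NFYA by -0.33. Among the genes named, NCAPH was thus called against both light alone and T-REX. Against DMSO the difference for NCAPH was -0.24 ± 0.07 and was not called, beside -0.29 ± 0.07 against light alone and -0.33 ± 0.07 against T-REX. Whether these values differ from each other was not tested.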

How the results depend on the processing

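The 6218 genes called in probe alone cells came to 5782 to 7846 under the settings that kept all 8 libraries and to 5459 to 6409 when 1 library was left out, the lowest without replicate 2 at 3 h. Upper quartile factors gave 3610 higher and 2554 lower. NCBP1 lay between -0.25 and -0.08 with 1 library left out and was called in none of these fits. The counts of genes whose change differed between arms were less stable. Against DMSO (1 gene), they were 0 with a mean of at least 100 counts, with the 32 libraries at 3 and 12 h or with only the arms compared, 2 with GC content and length offsets, 572 with the deposited factors and 8 by DESeq2. Against light alone (18), they were 38 with offsets, 1084 with the deposited factors, 118 with only the arms compared and 36 by DESeq2. Against T-REX (10), they were 1 with upper quartile factors, 2 without NCBP1, 2 with a mean of at least 100 counts, 6 after thinning, 48 with offsets, 1556 with the deposited factors, 0 with only the arms compared and 45 by DESeq2. Leaving out 1 library gave 0 to 5 against DMSO, 0 to 28 against light alone and 0 to 21 against T-REX. The cause was not tested. No named gene changed sign with a call. Leaving out libraries of other arms, the block within the 8 libraries and that within each time point were chosen after seeing the data.

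Replicate numbers were not shown to pair the libraries. The correlation of deviations was 0.061, 0.061, 0.15 and 0.17 for equal numbers, and replicate 1 at 3 h correlated best with replicate 3 at 12 h (0.17). With a replicate block, 6274 genes were called, 7539 within the 8 libraries alone (7090 without the block), and 2, 30 and 24 against DMSO, light alone and T-REX. Between probe alone and the other arms within a time point, 9 of 24 pairs of equal number had a correlation over 0.1 (range -0.18 to 0.33). With a replicate block within each time point, 6220 genes were called, and 0, 33 and 20 against DMSO, light alone and T-REX.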
